A study of Mus musculus with 10 samples.

Results

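The genes described here are 39 lysosomal genes and MiT/TFE transcription factors, out of 24421 genes measured by total RNA sequencing in mouse embryos at the 8-cell stage. They were chosen by symbol in 2 ways. Tfeb and Smpdl3a were chosen by their low values after Tfap2c knockdown, so their difference there is a description and carries no test. The other 37 were listed for their function: the factors Tfe3 and Mitf, Smpd1, and hydrolases, activators and membrane proteins of the lysosome. This listing was made with earlier results of these data known. All embryos were of BDF1 genotype and fall into 5 groups of 2 libraries each. These are a control (Ctrl), a knockdown of Tfap2c (siTfap2c), a knockdown of Klf5 (siKlf5), and the groups named Arpc1bE_CdxE1_KO and CdxE2_KO, both labelled as knockouts of a Tfap2c motif. Both knockdown targets are transcription factors, Tfap2c of the AP-2 type and Klf5 of the Krüppel-like type. The question asked of these genes was whether lysosomal RNAs are lower where Tfeb is lower.

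The lysosome is the acidic organelle in which proteases, glycosidases, sulfatases and lipid-cleaving enzymes break down material delivered by endocytosis and autophagy. Its genes are known to be activated by the MiT/TFE factors (Tfeb, Tfe3, Mitf), basic helix-loop-helix proteins that bind E-box sequences of the CLEAR type in their promoters. The kinase complex mTORC1 phosphorylates these factors at the lysosomal surface and holds them in the cytoplasm while nutrients are plentiful. Their activity is therefore set largely by where the protein is, which RNA levels do not measure.

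Levels are given on the deposited log2 scale, as log2 of abundance plus 1, where the kind of abundance was not named. Levels are therefore compared between libraries for 1 gene and not ranked between genes, apart from the summed levels given further on, and differences of weakly expressed genes are understated. The Ctrl libraries stand in the table of the motif knockouts, so both knockdowns were compared with a control from another table, which may have been scaled separately. Summed linear values ran from 388454 to 395401 units in Ctrl, siTfap2c and siKlf5 and from 478651 to 498621 in the motif knockouts. Tfap2c read 6.61 and 6.61 in Ctrl against 3.94 and 4.09 in siTfap2c, and Klf5 read 7.20 and 7.13 in Ctrl against 4.36 and 4.17 in siKlf5. Klf5 was also lower in siTfap2c, at 5.32 and 5.45, a difference of -1.78 ± 0.0988 (SE; limma, adjusted p = 4.74e-06). The labels do not say whether the libraries of a group came from separate pools of embryos. The p-values rest on the scatter between libraries of the same group, pooled over all groups in a fit, and this scatter may be technical. In bulk libraries, fewer cells of a type and less RNA per cell cannot be told apart.

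Promoters of the members were read from the RefSeq table of build GRCm38.p6, which spans 250 bases before to 50 bases after each gene start, and 34 of the 39 members had an entry. Smpdl3a, Ctsb, Ctsh, Npc1 and Asah1 had none. The E-box core CACGTG, which reads the same on both strands, was present for 11 of the 33 function-listed members with an entry (33.3%), against 8.09% of 27025 genes in the table. The longer palindrome TCACGTGA, which contains it, was present for 5 of 33 (15.2%, against 1.12%). The M-box TCATGTG, searched on both strands, was present for 6 of 33 (18.2%, against 4.31%). The AP-2 sequence GCCNNNGGC, also palindromic, was present for 7 of 33 (21.2%, against 18.5%). Sequences holding the E-box core are shown because the element is the known site of the MiT/TFE factors, 5′ to 3′ along the gene's strand, with each CACGTG in capitals. The first 3 belong to genes that were lower in siTfap2c, the fourth to a gene that was higher, and the last 5 to genes with no call there.
Ctsa, chr2:164833757-164833786 (+): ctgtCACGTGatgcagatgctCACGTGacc
Ctsd, chr7:142388048-142388077 (-): tccccCACGTGacctgtatccagtcattct
Gaa, chr11:119267776-119267875 (+): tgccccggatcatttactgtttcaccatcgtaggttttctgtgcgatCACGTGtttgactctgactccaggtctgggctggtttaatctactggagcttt
Ctsl, chr13:64370671-64370770 (-): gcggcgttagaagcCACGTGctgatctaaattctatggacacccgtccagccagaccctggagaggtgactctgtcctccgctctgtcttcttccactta
Gla, chrX:134601215-134601244 (-): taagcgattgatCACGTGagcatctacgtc
Glb1, chr9:114400978-114401077 (+): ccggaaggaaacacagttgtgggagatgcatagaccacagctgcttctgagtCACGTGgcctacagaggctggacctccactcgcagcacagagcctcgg
Cln3, chr7:126583368-126583397 (-): gcaaccctcaagCACGTGatggaaggctca
Lamp1, chr8:13159061-13159160 (+): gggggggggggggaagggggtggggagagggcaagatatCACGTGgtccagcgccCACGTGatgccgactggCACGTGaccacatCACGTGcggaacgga
Mcoln1, chr8:3500436-3500465 (+): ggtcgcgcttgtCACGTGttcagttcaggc

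By their call in siTfap2c minus Ctrl, the core was present for 3 of 10 lower members with an entry (Ctsa, Ctsd, Gaa), for 1 of 4 higher members (Ctsl), for 5 of 10 members without a call (Gla, Glb1, Lamp1, Mcoln1, Cln3) and for 2 of 9 that were not tested. Of the genes without a call, the stretch shown for Lamp1 holds 4 copies. The stretches are parts of the promoter windows, of 30 or 100 bases, so copies in them do not compare between genes. For Ctsd, Gla, Cln3 and Mcoln1 the window holds 2 copies, of which 1 is shown. The M-box was present for 2 of 10 lower members (Ctsa, Grn), 0 of 4 higher, 2 of 10 without a call and 2 of 9 not tested. The AP-2 sequence was present for 1 of 10 lower members (Psap), 0 of 4 higher, 2 of 10 without a call and 4 of 9 not tested. A match describes the letters in these windows and is no evidence of binding. The stretches of Ctsl and Cln3 lie before the RefSeq start but inside the longer gene model of GENCODE M21. That of Ctsa crosses the RefSeq start and also lies inside its GENCODE model. The stretches of Glb1 and Mcoln1 run across the GENCODE start.

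Tfeb (chr17:47737030-47792419, plus strand, mm10) has 3 promoter windows in the RefSeq table, and none of them holds any of the 4 motifs, which says only that these letters are absent there. The part of the first window that precedes the GENCODE gene start is shown because Tfeb was chosen by its low values after Tfap2c knockdown.
Tfeb, chr17:47736787-47737029 (+): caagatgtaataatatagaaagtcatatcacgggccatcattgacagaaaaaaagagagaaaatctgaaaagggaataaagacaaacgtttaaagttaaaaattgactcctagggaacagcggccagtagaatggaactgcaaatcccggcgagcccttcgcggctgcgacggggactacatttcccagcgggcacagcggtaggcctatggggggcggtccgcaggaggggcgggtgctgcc

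Tfeb read 6.03 and 6.24 in Ctrl, 2.45 and 2.75 in siTfap2c, 5.86 and 5.92 in siKlf5, 6.53 and 6.43 in Arpc1bE_CdxE1_KO and 6.35 and 6.30 in CdxE2_KO. The siTfap2c libraries stood far below all others, with a mean of 2.60 ± 0.21 against 6.13 ± 0.15 in Ctrl (SD, n = 2). On the linear scale this is 5.08 against 69.5 units, so Tfeb RNA was reduced in siTfap2c but not absent. The siKlf5 libraries lay just under the lower Ctrl library, and their difference of -0.25 ± 0.11 (SE; 95% interval -0.50 to 0.0023) was not called (adjusted p = 0.229).

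Tfe3, the second MiT/TFE factor of these embryos, read 4.06 and 4.08 in Ctrl, 3.63 and 3.56 in siTfap2c, 3.61 and 3.54 in siKlf5, 3.88 and 4.03 in Arpc1bE_CdxE1_KO and 4.05 and 4.01 in CdxE2_KO. Both knockdowns lay below the control without overlap. Tfe3 fell by 0.48 ± 0.093 in siTfap2c (adjusted p = 0.00524) and by 0.50 ± 0.093 in siKlf5 (adjusted p = 0.0151). The siTfap2c call held without each library in turn, whereas the siKlf5 call was lost whichever library was left out (adjusted p at most 0.101). The direct difference between the knockdowns was 0.02, with a 95% interval of -0.19 to 0.23. Mitf, the founding member of the family, read 0.06 to 0.16 across the 10 libraries and stayed below the level tested.

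Smpdl3a (chr10:57794335-57811830), which encodes a secreted phosphodiesterase related to acid sphingomyelinase, read 5.02 and 4.71 in Ctrl, 0.29 and 0.71 in siTfap2c, 4.79 and 5.04 in siKlf5, 4.76 and 4.33 in Arpc1bE_CdxE1_KO and 4.58 and 4.51 in CdxE2_KO. It was nearly lost in siTfap2c, at 0.43 against 28.3 linear units, while the siKlf5 libraries overlapped those of the control (difference 0.05 ± 0.19, adjusted p = 0.921). Smpd1, acid sphingomyelinase itself, read 3.66 and 3.58 in Ctrl, 3.27 and 3.31 in siTfap2c, 3.53 and 3.15 in siKlf5, 3.77 and 3.55 in Arpc1bE_CdxE1_KO and 3.81 and 3.75 in CdxE2_KO. Its differences of -0.32 in siTfap2c (adjusted p = 0.118) and -0.28 in siKlf5 (adjusted p = 0.264) were not called. The plot of factor and sphingomyelinase levels sets the 5 genes side by side.

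**Figure D1:**
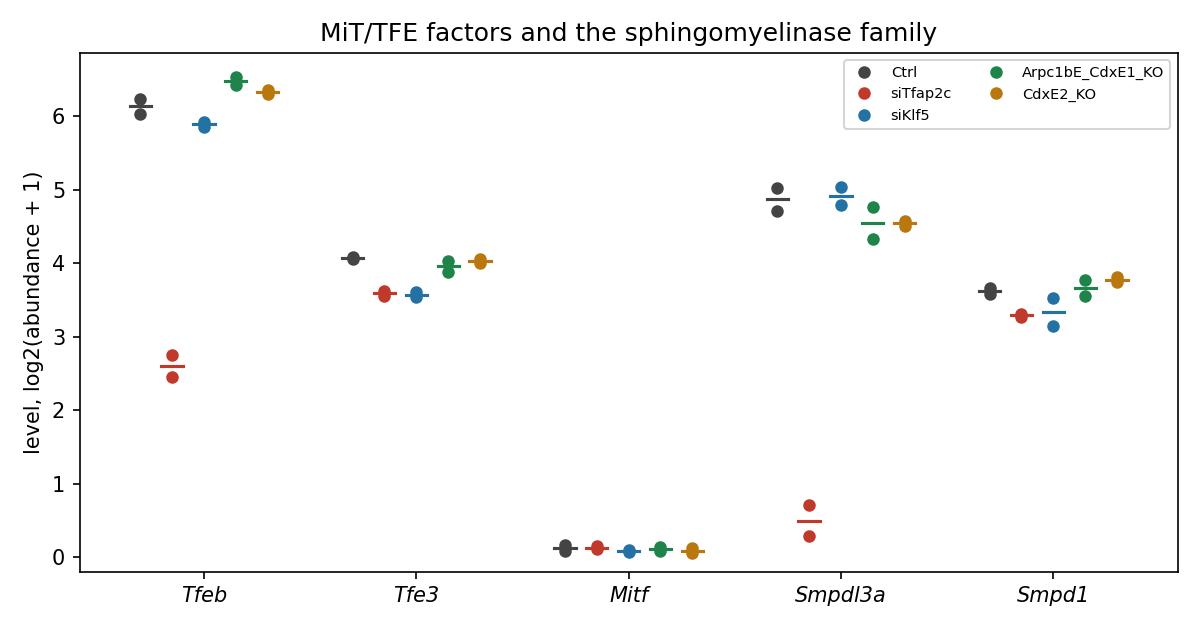
Level of Tfeb, Tfe3, Mitf, Smpdl3a and Smpd1 on the log2(abundance + 1) scale, with 1 point per library and a line at the mean of each group of 2. The siTfap2c points of Tfeb (2.45 and 2.75) and Smpdl3a (0.29 and 0.71) lie far below those of every other group, whereas the Mitf points of all groups lie at or below 0.16.

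Of the 37 function-listed members, 28 reached 1 linear unit in at least 2 libraries and were tested. The other 9 (Mitf, Tpp1, Gusb, Arsa, Naglu, Manba, Fuca1, Lipa, Ppt1) read between 0 and 1.09 in all libraries, the highest being Ppt1 in a CdxE2_KO library. In siTfap2c minus Ctrl, 13 of the 28 fell and 5 rose at a Benjamini-Hochberg adjusted p under 0.05 (limma). Of all 11195 genes tested in that comparison, 11.9% fell and 12.6% rose. The median difference of the 28 was -0.31, beside 0.04 over all genes tested. Because the list was made with earlier results of these data known, its counts are a description and not those of an independent set. When each library was centred on its median the same 13 and 5 were called, beside 12.4% lower and 11.6% higher of all genes. Values of 8-cell, oocyte-inherited and other marker genes are given further on, and their part in the members' differences was not tested.

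**Figure D2:**
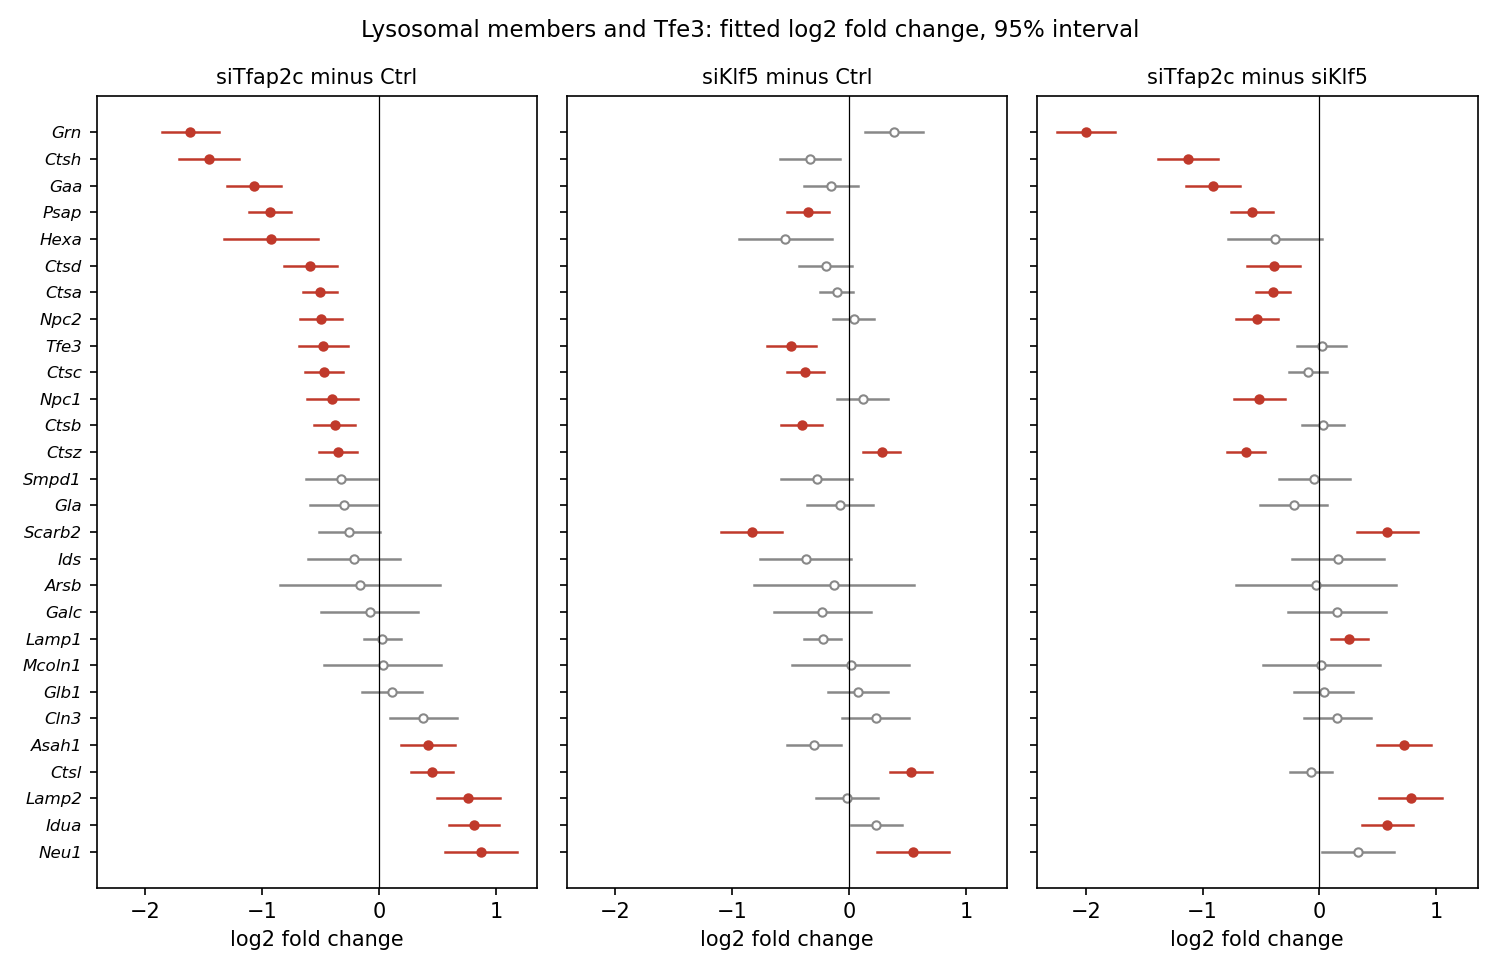
Fitted log2 fold change of the 28 tested function-listed members, ordered by siTfap2c minus Ctrl, with 95% intervals, for siTfap2c minus Ctrl, siKlf5 minus Ctrl and siTfap2c minus siKlf5; filled red points have an adjusted p under 0.05. In the first panel 13 members lie below 0 and 5 above it with a call, and Grn stands at -1.61 in the first panel and at 0.38, uncalled, in the second.

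Proteases made up the group with the most calls in siTfap2c, with 6 of 7 tested members lower and 1 higher. Ctsh, a cysteine protease with aminopeptidase activity (chr9:90054152-90076089), read 4.42 and 4.49 in Ctrl, 3.00 and 2.99 in siTfap2c, 4.0 and 4.23 in siKlf5, 4.96 and 4.80 in Arpc1bE_CdxE1_KO and 4.29 and 4.49 in CdxE2_KO. It fell by 1.46 ± 0.114 in siTfap2c (adjusted p = 2.78e-05), the largest difference among the proteases. Ctsd, the main aspartic protease of lysosomes, read 6.11 and 6.23 in Ctrl and 5.53 and 5.63 in siTfap2c, and fell by 0.59 ± 0.101 (adjusted p = 0.00259). Ctsa, a carboxypeptidase that also protects neuraminidase and beta-galactosidase from degradation, read 6.85 and 6.92 in Ctrl and 6.36 and 6.40 in siTfap2c. These proteases thus lay below the control in both siTfap2c libraries, Ctsa by 0.51 ± 0.0643 (adjusted p = 0.000505).

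Ctsc, which activates other proteases by trimming their ends, fell by 0.47 ± 0.0722, from 7.19 and 7.16 in Ctrl to 6.77 and 6.64 in siTfap2c (adjusted p = 0.00149). The cysteine protease Ctsb fell by 0.38 ± 0.0786, from 6.39 and 6.42 to 6.05 and 6.0 (adjusted p = 0.007). Ctsz, a carboxypeptidase, fell by 0.35 ± 0.0713, from 5.51 and 5.59 to 5.22 and 5.17 (adjusted p = 0.00636). Ctsl moved the other way from these 6. This endopeptidase (chr13:64359337-64370890) read 8.44 and 8.61 in Ctrl, 8.98 and 8.98 in siTfap2c, 9.06 and 9.05 in siKlf5, 9.42 and 9.25 in Arpc1bE_CdxE1_KO and 9.35 and 9.36 in CdxE2_KO. The control libraries were the lowest of all 10, and Ctsl rose by 0.45 ± 0.0794 in siTfap2c (adjusted p = 0.0029). Without siTfap2c replicate 2 the call of Ctsb was lost (adjusted p = 0.0535), and Ctsz lost its call without that library or without Ctrl replicate 2 (adjusted p at most 0.0544).

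Glycosidases and sulfatases split evenly, with 2 of 8 tested members lower and 2 higher in siTfap2c. Gaa, the acid alpha-glucosidase that degrades glycogen (chr11:119267887-119285454), read 4.89 and 4.91 in Ctrl, 3.86 and 3.80 in siTfap2c, 4.76 and 4.72 in siKlf5, 4.54 and 4.76 in Arpc1bE_CdxE1_KO and 4.85 and 4.66 in CdxE2_KO. It fell by 1.07 ± 0.102 (adjusted p = 9.92e-05), with siTfap2c clear of all other groups. Hexa, the alpha subunit of beta-hexosaminidase, which degrades ganglioside GM2, read 2.43 and 2.63 in Ctrl, 1.79 and 1.41 in siTfap2c and 1.77 and 2.19 in siKlf5. It fell by 0.93 ± 0.179 in siTfap2c (adjusted p = 0.00485), and the libraries of the 2 knockdowns overlapped.

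Neu1, the lysosomal sialidase (chr17:34931253-34935953), read 1.67 and 1.82 in Ctrl, 2.51 and 2.73 in siTfap2c, 2.29 and 2.29 in siKlf5, 1.79 and 2.0 in Arpc1bE_CdxE1_KO and 1.83 and 1.81 in CdxE2_KO. Both knockdowns stood above the other 3 groups, and Neu1 rose by 0.87 ± 0.138 in siTfap2c (adjusted p = 0.00171). Idua, which removes iduronic acid from glycosaminoglycans (chr5:108660331-108684557), read 5.13 and 5.36 in Ctrl, 6.13 and 5.99 in siTfap2c, 5.50 and 5.46 in siKlf5, 5.09 and 5.20 in Arpc1bE_CdxE1_KO and 5.15 and 5.19 in CdxE2_KO. It rose by 0.81 ± 0.0963 in siTfap2c (adjusted p = 0.000344). Its gene overlaps Dgkq and Slc26a1 on the opposite strand, and whether the counting used strand was not given in the sources used here. Of the other members called in siTfap2c minus Ctrl, Ctsa, Ctsb, Ctsc, Ctsl, Ctsz, Hexa, Npc1 and Grn also overlap a gene on the opposite strand. Ctsd and Ctsl overlap a gene on their own strand. Gla, Glb1, Ids and Arsb had no call, with differences from -0.30 (Gla) to 0.11 (Glb1).

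Among the enzymes of lipid breakdown and their activators, 1 of 3 tested members was lower and 1 higher. Psap, the precursor of the saposins that present sphingolipids to their hydrolases (chr10:60277627-60302597), read 8.43 and 8.38 in Ctrl, 7.42 and 7.52 in siTfap2c, 8.08 and 8.03 in siKlf5, 8.25 and 8.43 in Arpc1bE_CdxE1_KO and 8.39 and 8.29 in CdxE2_KO. It fell by 0.93 ± 0.0797 in siTfap2c (adjusted p = 5.06e-05). Asah1, acid ceramidase, read 3.48 and 3.43 in Ctrl, 3.94 and 3.82 in siTfap2c, 3.17 and 3.14 in siKlf5, 3.96 and 3.82 in Arpc1bE_CdxE1_KO and 3.90 and 4.06 in CdxE2_KO. It rose by 0.42 ± 0.103 in siTfap2c (adjusted p = 0.0154), a call lost without siTfap2c replicate 1 or without either Ctrl library (adjusted p at most 0.112). Galc, which cleaves galactosylceramide, had no call (-0.08).

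Membrane proteins, cholesterol export proteins and the remaining members held 3 lower and 1 higher of 8 tested. Grn, whose product progranulin is cut into granulins in the lysosome (chr11:102430315-102437048), read 8.13 and 8.18 in Ctrl, 6.49 and 6.59 in siTfap2c, 8.62 and 8.46 in siKlf5, 7.51 and 7.86 in Arpc1bE_CdxE1_KO and 7.65 and 7.63 in CdxE2_KO. Its fall of 1.61 ± 0.11 in siTfap2c (adjusted p = 1.32e-05) was the largest among the 28 tested function-listed members. Grn overlaps Fam171a2 on the opposite strand.

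Npc2, the soluble carrier that hands cholesterol to Npc1, read 6.41 and 6.36 in Ctrl and 5.86 and 5.90 in siTfap2c, and fell by 0.50 ± 0.0789 (adjusted p = 0.00172). Npc1, the membrane protein that exports the cholesterol, read 3.64 and 3.61 in Ctrl and 3.19 and 3.27 in siTfap2c, and fell by 0.40 ± 0.0957 (adjusted p = 0.0141). Both partners were thus lower, although the call of Npc1 was lost without siTfap2c replicate 1 or without either Ctrl library (adjusted p at most 0.0969). Lamp2, a glycoprotein of the lysosomal membrane with a role in chaperone-mediated autophagy (chrX:38401357-38456454), read 6.16 and 6.07 in Ctrl, 6.91 and 6.84 in siTfap2c, 5.93 and 6.26 in siKlf5, 6.79 and 6.52 in Arpc1bE_CdxE1_KO and 6.66 and 6.62 in CdxE2_KO. It rose by 0.76 ± 0.119 in siTfap2c (adjusted p = 0.00162).

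Lamp1, the other abundant glycoprotein of that membrane, read 8.18 and 8.22 in Ctrl and 8.22 and 8.24 in siTfap2c. Its difference was 0.03, with a 95% interval of -0.13 to 0.19 and no call. Cln3, a membrane protein mutated in juvenile neuronal ceroid lipofuscinosis, read 2.19 and 2.34 in Ctrl and 2.72 and 2.56 in siTfap2c. With 0.38 ± 0.127 (adjusted p = 0.0576) it had the largest difference of the members that missed the threshold. Scarb2, the receptor that carries glucocerebrosidase to the lysosome, and the calcium channel Mcoln1 had no call, at -0.25 and 0.03. Over the whole comparison, 10 of the 13 lower and 4 of the 5 higher members kept their call when each of the 4 libraries was left out in turn, the exceptions being Ctsb, Ctsz, Npc1 and Asah1.

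In siKlf5 minus Ctrl, which shares its control libraries with the comparison above, 5 of the 28 fell (Scarb2, Tfe3, Ctsb, Ctsc, Psap) and 3 rose (Neu1, Ctsl, Ctsz). Of all 11195 genes tested, 5.27% fell and 2.25% rose in this comparison (3.94% and 3.39% after centring). The median difference of the 28 was -0.14, beside -0.02 over all genes. Scarb2 read 3.56 and 3.66 in Ctrl, 3.31 and 3.41 in siTfap2c, 2.91 and 2.65 in siKlf5, 3.78 and 3.66 in Arpc1bE_CdxE1_KO and 3.52 and 3.59 in CdxE2_KO. The siKlf5 libraries were the lowest of the 10, and Scarb2 fell by 0.83 ± 0.117 there (adjusted p = 0.00434). It was the 1 member of the 8 whose call held when each library was left out in turn.

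The remaining siKlf5 calls were smaller. Ctsb read 5.90 and 6.09 in siKlf5 and fell by 0.41 ± 0.0786 (adjusted p = 0.0168). Ctsc read 6.84 and 6.77 there and fell by 0.37 ± 0.0722 (adjusted p = 0.0169). Psap fell by 0.35 ± 0.0797 (adjusted p = 0.0298), and this call was lost after centring (adjusted p = 0.0668). The rises were 0.54 ± 0.138 for Neu1 (adjusted p = 0.0451), 0.53 ± 0.0794 for Ctsl (adjusted p = 0.00569) and 0.28 ± 0.0713 for Ctsz, which read 5.80 and 5.85 in siKlf5 (adjusted p = 0.0473). Tfe3, Ctsc, Psap, Neu1 and Ctsz lost their call whichever of the 4 libraries was left out (adjusted p at most 0.239). Ctsb lost it without siKlf5 replicate 1 or either Ctrl library (at most 0.102), and Ctsl without Ctrl replicate 1 (0.058). Grn, at 0.38 ± 0.11, was not called (adjusted p = 0.0674), and neither was Hexa, at -0.55 ± 0.179 (adjusted p = 0.102).

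The direct comparison of the knockdowns, siTfap2c minus siKlf5, does not use the control. In it 9 of the 28 were lower in siTfap2c and 5 higher, and of all 11195 genes tested 10.5% were lower and 15.1% higher (13.1% and 11.4% after centring). Grn differed by -2.0 ± 0.11 (adjusted p = 5.13e-06), Ctsh by -1.12 ± 0.114 (adjusted p = 0.000159) and Gaa by -0.91 ± 0.102 (adjusted p = 0.00028). Ctsz (-0.63), Psap (-0.58), Npc2 (-0.53), Npc1 (-0.51), Ctsa (-0.40) and Ctsd (-0.39) were the others that were lower, with adjusted p from 0.000297 to 0.0193. For Ctsz the knockdowns lay on opposite sides of the control. Those higher in siTfap2c were Lamp2 (0.78), Asah1 (0.72), Idua (0.58), Scarb2 (0.58) and Lamp1 (0.25), with adjusted p from 0.00102 to 0.0259.

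Calls of 8 of the 9 lower and 4 of the 5 higher genes held when each library was left out in turn. The exceptions were Ctsd, without either siTfap2c library or siKlf5 replicate 1 (adjusted p at most 0.128), and Lamp1, whichever library was left out (at most 0.154) or after centring (0.104). For several members the knockdowns were not told apart. The 95% interval of the difference was -0.15 to 0.21 for Ctsb, -0.26 to 0.07 for Ctsc, -0.25 to 0.10 for Ctsl, -0.78 to 0.02 for Hexa and 0.02 to 0.64 for Neu1, whose adjusted p was 0.115. These are members that were lower or higher than Ctrl in both knockdowns, with no call for Hexa in siKlf5.

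In the motif knockouts whole libraries were shifted against Ctrl, with a median difference over all genes of 0.27 in Arpc1bE_CdxE1_KO and 0.29 in CdxE2_KO, so the calls are given also after centring every library on its median. In Arpc1bE_CdxE1_KO minus Ctrl, 4 of the 28 rose (Ctsl, Lamp2, Asah1, Ctsh) and Grn fell, and of all 10920 genes tested 23.2% rose and 0.815% fell. After centring, Ctsl was the 1 higher and Grn the 1 lower member, when 1.63% of all genes were higher and 1.31% lower. In CdxE2_KO minus Ctrl, 6 of the 28 rose (Ctsl, Lamp2, Asah1, Cln3, Ctsb, Ctsz) and Grn fell, and 28.5% of all genes rose and 1.44% fell. After centring, Ctsl was higher and Grn and Lamp1 lower, when 2.64% of all genes were higher and 3.6% lower.

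Ctsl and Grn were thus the members whose call in both knockouts did not depend on the scaling. Ctsl rose by 0.81 ± 0.0975 in Arpc1bE_CdxE1_KO (adjusted p = 0.00539; 0.49 after centring, adjusted p = 0.046) and by 0.83 ± 0.0975 in CdxE2_KO (adjusted p = 0.00425; 0.50 after centring, adjusted p = 0.0322). These calls held without each library in turn. Grn fell by 0.47 ± 0.119 in Arpc1bE_CdxE1_KO (adjusted p = 0.0314; -0.79 after centring, adjusted p = 0.0261) and by 0.52 ± 0.119 in CdxE2_KO (adjusted p = 0.0201; -0.85 after centring, adjusted p = 0.016). The Grn call was lost in Arpc1bE_CdxE1_KO without either Ctrl library (adjusted p at most 0.149), and in CdxE2_KO whichever library was left out (at most 0.106). The knockouts share the control libraries with each other and with both knockdowns.

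Tfeb itself had no lower call in either knockout. As deposited, its difference was 0.35 ± 0.0987 in Arpc1bE_CdxE1_KO (adjusted p = 0.0429) and 0.19 ± 0.0987 in CdxE2_KO (adjusted p = 0.174). After centring these were 0.03 (adjusted p = 0.902) and -0.14 (adjusted p = 0.427). The first call was also lost without Arpc1bE_CdxE1_KO replicate 1 or either Ctrl library (adjusted p at most 0.238). Smpdl3a differed by -0.32 in both, with no call (adjusted p = 0.191 and 0.171). After centring its differences were -0.64 (adjusted p = 0.0786) and -0.66 (adjusted p = 0.0557), also without a call. Lamp2 rose by 0.54 and 0.53, and Asah1 by 0.44 and 0.52, differences of which 0.22 and 0.20, and 0.11 and 0.19, were left after centring, with no call. Without either Ctrl library the Lamp2 and Asah1 calls were lost in both knockouts, and so was the Ctsh call of 0.42 (0.10 after centring, no call) in Arpc1bE_CdxE1_KO (adjusted p at most 0.174). In Arpc1bE_CdxE1_KO the Asah1 and Ctsh calls were lost without replicate 1 of that knockout too, and in CdxE2_KO the Lamp2 and Asah1 calls whichever library was left out. The other rises in CdxE2_KO were 0.50 for Cln3, 0.46 for Ctsb and 0.38 for Ctsz (adjusted p = 0.0353, 0.00805 and 0.0166). They shrank to 0.17, 0.13 and 0.05 after centring, with no call. Leaving out any library ended the calls of Cln3 and Ctsz (adjusted p at most 0.175), and leaving out CdxE2_KO replicate 2 or either Ctrl library that of Ctsb (at most 0.0687).

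**Figure D3:**
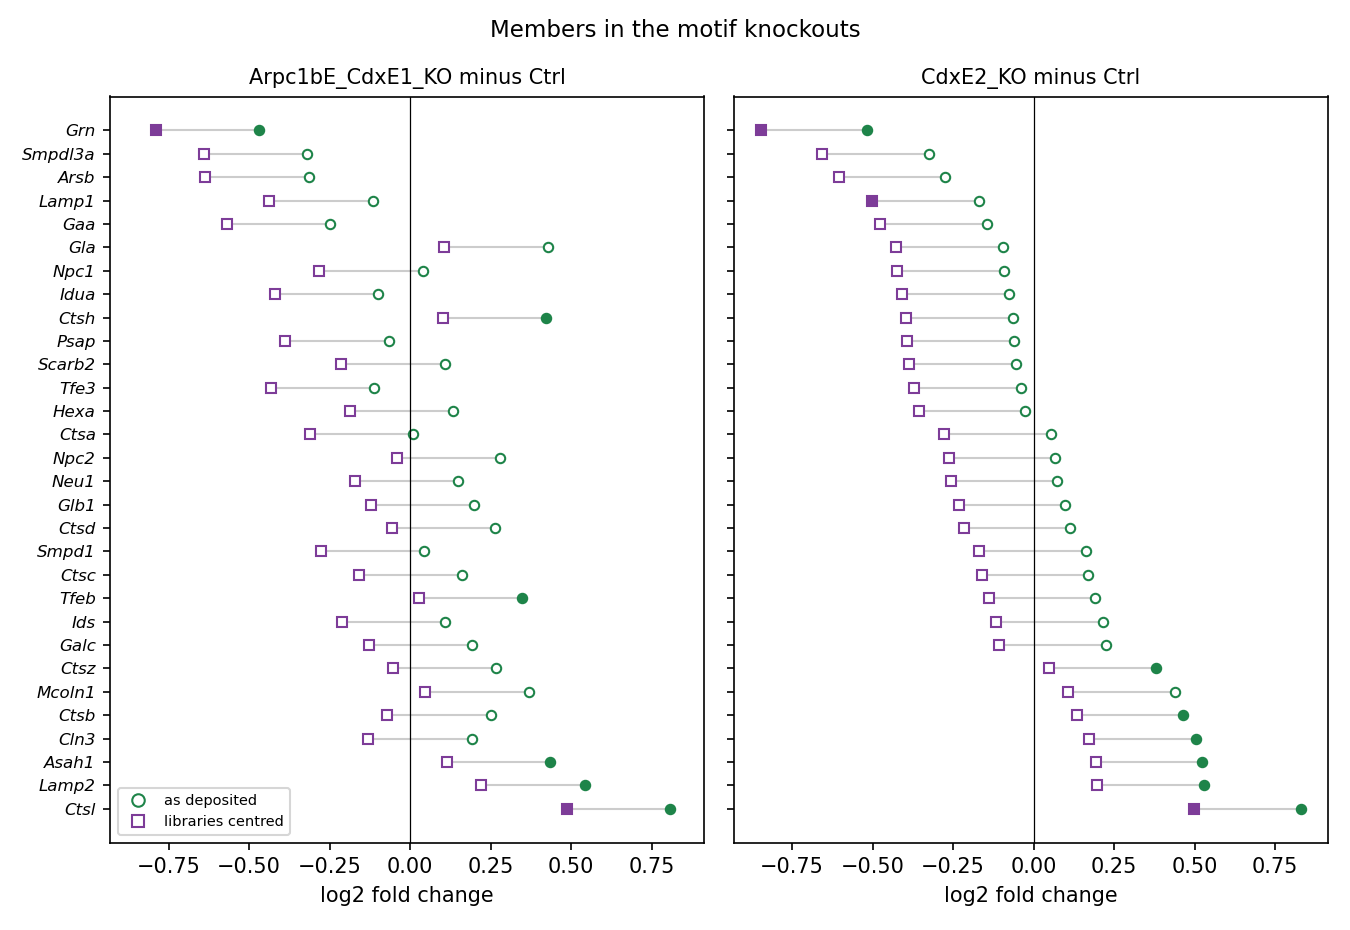
Log2 fold change of the 30 tested members in Arpc1bE_CdxE1_KO minus Ctrl and CdxE2_KO minus Ctrl, as deposited (green circles) and with each library centred on its median (purple squares); filled symbols have an adjusted p under 0.05. Centring moves every member to the left by about the shift of the whole library, after which Ctsl (0.49 and 0.50) and Grn (-0.79 and -0.85) keep a call in both knockouts and Lamp1 gains one in CdxE2_KO (-0.50).

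Summed over the 37 function-listed members, linear abundance was 2057 and 2119 units in Ctrl, 1761 and 1760 in siTfap2c, 2178 and 2113 in siKlf5, 2383 and 2366 in Arpc1bE_CdxE1_KO, and 2364 and 2345 in CdxE2_KO. The siTfap2c libraries were the lowest and the knockouts the highest, and siKlf5 overlapped the control. As a share of everything measured in a library, the members held 0.528% and 0.543% in Ctrl, 0.453% and 0.452% in siTfap2c, 0.553% and 0.534% in siKlf5, 0.478% and 0.489% in Arpc1bE_CdxE1_KO, and 0.494% and 0.487% in CdxE2_KO. On this scale the knockouts lay below the control, not above it. The mean of siTfap2c was below that of Ctrl by 15.7% in linear units, a percent difference of -15.7. Ctsl, which contributed most to the sum in every library, was higher in siTfap2c, and without it the difference was -26.9%. These sums add genes of different length and carry no test.

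**Figure D4:**
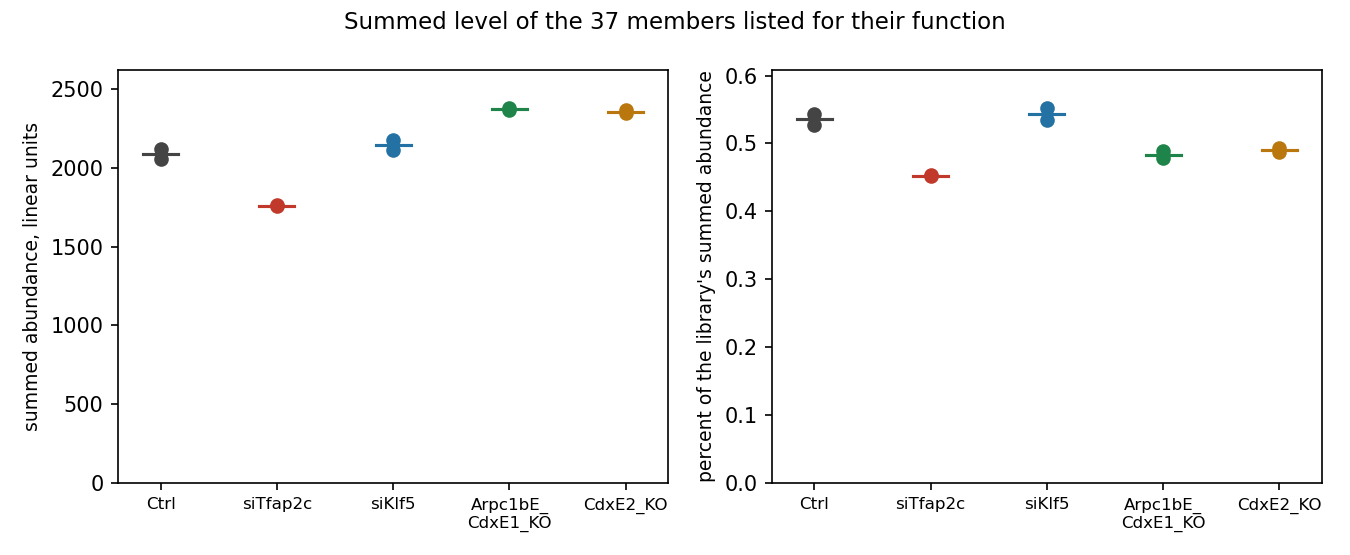
Summed abundance of the 37 function-listed members in each library, in linear units (left) and as a percent of the library's summed abundance (right), with a line at the mean of each group of 2. The siTfap2c libraries are the lowest on both scales (1761 and 1760 units, 0.453% and 0.452%), whereas the knockouts lie above Ctrl in linear units and below it as a share.

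Other genes of the lysosomal system were taken from 7 lists with 167 genes in all. In siTfap2c minus Ctrl, 2 of 18 tested further hydrolases rose and 2 fell, among them the alpha-mannosidase Man2b1 (-0.88, adjusted p = 0.00361) and the phospholipase Pla2g15 (-0.73, adjusted p = 0.000384). Of 21 further membrane proteins and transporters, 2 rose and 4 fell, such as Ostm1, the partner of the chloride-proton exchanger Clcn7 (1.02, adjusted p = 0.000934), and the lysophospholipid transporter Spns1 (-0.90, adjusted p = 2.69e-05). Sidt2, a transporter of nucleic acids, fell by 0.64 (adjusted p = 0.00208).

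Of 12 genes of mannose 6-phosphate sorting, 1 rose and 2 fell, with the adaptor Gga2 at -1.14 (adjusted p = 0.000195), the adaptor subunit Ap1g1 at 0.29 (adjusted p = 0.0287) and Gnptab, which makes the mannose 6-phosphate tag, at -0.24 (adjusted p = 0.0344). Of 17 subunits of the V-ATPase, the proton pump of the lysosome, 0 rose and 1 fell, Atp6v0a2 (-0.51, adjusted p = 0.0293). The proton pump as listed here therefore held 1 call, and its median difference was -0.03.

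Among 25 genes of the control of MiT/TFE factors by mTORC1, 4 rose and 3 fell. The kinase Akt1 fell by 1.46 (adjusted p = 1.9e-05) and Ywhab, a 14-3-3 protein of the kind that holds phosphorylated Tfeb in the cytoplasm, by 0.86 (adjusted p = 0.00013), while Tsc1, an inhibitor of mTORC1, rose by 0.59 (adjusted p = 0.00247). Of 29 autophagy genes 0 rose and 6 fell. Those with the lowest p were Ulk1, the kinase that starts autophagy (-1.41, adjusted p = 6.4e-06), Vps18, a tethering subunit (-0.58, adjusted p = 0.00402), and Stx17, the fusion protein of autophagosomes (-0.72, adjusted p = 0.00409). Of 21 genes of endosome maturation 4 rose and 1 fell, including the retromer subunit Vps26a (0.94, adjusted p = 3.76e-05), the phosphoinositide phosphatase Fig4 (0.40, adjusted p = 0.00472) and the early endosome GTPase Rab5a (-0.55, adjusted p = 0.000565). The shares called in these 7 lists stand beside 12.6% higher and 11.9% lower over all genes.

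In siKlf5 minus Ctrl, where 5.27% of all genes fell and 2.25% rose, 4 genes of the 7 lists were called. Scpep1, a serine carboxypeptidase, fell by 0.33 (adjusted p = 0.0322), Clcn7 by 0.51 (adjusted p = 0.036) and Ywhab by 0.37 (adjusted p = 0.0343), and the V-ATPase subunit Atp6v1a rose by 0.39 (adjusted p = 0.0489). These were 1 each of 18 further hydrolases, 21 further membrane proteins, 25 genes of mTORC1 control and 17 V-ATPase subunits tested. Mannose 6-phosphate sorting, autophagy and endosome maturation held 0 calls. After centring, 0 genes were lower in any of these lists. The higher calls were then 1 of 17 V-ATPase subunits and 1 of 12 sorting genes. Of all genes, 3.94% were lower and 3.39% higher after centring. In the knockouts as deposited, 5 of 17 V-ATPase subunits were higher in each, and 8 and 9 of 25 genes of mTORC1 control, where 23.2% and 28.5% of all genes were higher. After centring, 0 of these were called in either list. Autophagy then held 1 higher and 4 lower of 29 in CdxE2_KO, endosome maturation 0 and 2 of 21, and further membrane proteins 1 and 2 of 21. Of all genes, 2.64% were higher and 3.6% lower there. In Arpc1bE_CdxE1_KO these lists held 0 and 1, 0 and 1, and 1 and 1, beside 1.63% and 1.31% of all genes. Further hydrolases and mannose 6-phosphate sorting held 0 calls in both knockouts.

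**Figure D5:**
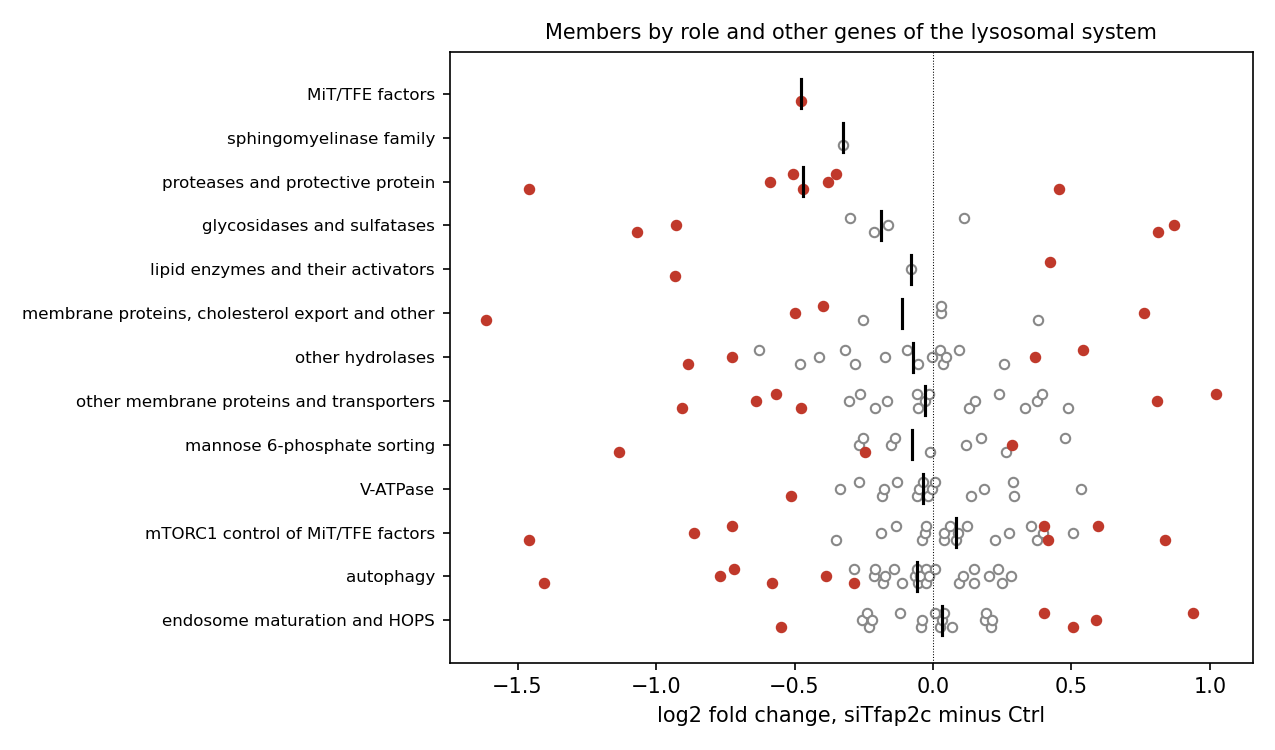
Log2 fold change in siTfap2c minus Ctrl of each tested function-listed member by role, and of the tested genes of 7 further lists of the lysosomal system; filled red points have an adjusted p under 0.05 and black bars mark the median of a list. The proteases lie mostly below 0 (median -0.47, with Ctsl above 0), and the further lists have medians between -0.07 and 0.08.

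Markers of other cells were measured beside these genes. All 10 markers of the 8-cell embryo reached 1 linear unit in every group, and their sums ran from 705 to 864 units. In siTfap2c minus Ctrl, 7 of these 10 fell and 1 rose, beside 11.9% and 12.6% of all genes, with Pou5f1, the pluripotency factor, at -1.47 (adjusted p = 1.13e-05). In siKlf5 minus Ctrl 2 fell and 1 rose, beside 5.27% and 2.25%. As deposited, 0 fell and 2 rose in Arpc1bE_CdxE1_KO, and 1 fell and 2 rose in CdxE2_KO. After centring, 2 were lower and 1 higher in Arpc1bE_CdxE1_KO (1.31% and 1.63% of all genes). In CdxE2_KO 4 were then lower and 1 higher (3.6% and 2.64%). Of 10 cumulus and granulosa markers, 8 stayed under 1 unit in every library, Inha and Fshr were listed at 0 in all, and the sums were 2.74 to 4.04 units. Of 8 macrophage markers, 6 stayed under 1 unit in every library and Tyrobp was listed at 0 in all. The summed macrophage list rested almost wholly on Fcgr3, which read 5.33 and 5.30 in Ctrl and 5.91 and 6.01 in siTfap2c (0.64 ± 0.191, adjusted p = 0.0366).

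The summed level of transcripts inherited from the oocyte rested mostly on Dppa3, a protector of maternal methylation, with a mean of 375 units in Ctrl and 224 in siTfap2c. The list summed to 447 to 453 units in Ctrl, 284 to 311 in siTfap2c, 455 to 500 in siKlf5, 578 to 770 in Arpc1bE_CdxE1_KO and 604 to 617 in CdxE2_KO. The siTfap2c libraries were thus the lowest and the knockouts the highest, as for the members' summed abundance in linear units. As a share of the library the members lay below Ctrl in the knockouts, with means of 0.484% in Arpc1bE_CdxE1_KO, 0.491% in CdxE2_KO and 0.535% in Ctrl. The oocyte list was not put on that scale. Of 14 tested oocyte-inherited genes, 1 fell in siTfap2c (Dppa3, -0.74, adjusted p = 0.00219), where 11.9% of all genes fell, and the median of the 14 was -0.02. In siKlf5 0 were called. In the knockouts as deposited 4 and 5 rose (28.6% and 35.7%), beside 23.2% and 28.5% of all genes. After centring, 0 were called in either knockout.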

How the data were processed

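Total RNA of 10 libraries of 8-cell embryos was analysed from 3 deposited tables. The authors deposited log2 values, whose zeros put the added constant at 1. Tools and build, per the submitters' processing notes, were Cufflinks, StringTie 1.3.4, SAMtools 1.7, HISAT2 2.1.0 and mm10. The depth is unknown, as no read counts were used, and 26.0% to 34.5% of values per library are 0. Genes that reached 1 linear unit in 2 or more libraries were fitted in R 4.3.3 with limma 3.58.1 (eBayes with a trend, two-sided, Benjamini-Hochberg over all genes tested, called under 0.05). Every adjusted p in the text is from limma. Knockdowns were fitted on all 10 libraries (11195 genes) across tables, knockouts on the 6 libraries of their own table (10920 genes). The fits were tested on simulated data without shifts of whole libraries or between tables, so that test does not cover the scaling. The members and lists were chosen with earlier results of these data known. Named are Tfeb, Tfe3, Mitf, Smpdl3a, Smpd1, every other member called in a comparison, the largest uncalled difference in siTfap2c, and up to 3 called genes of lowest p per list in each knockdown; uncalled members are otherwise named only with a difference, chosen after their values were seen. Of the genes this rule names, 1 is not reported here. Positions are from GENCODE M21. Alternatives were another constant (0.1), other filters, centring, a replicate block, all 10 libraries for the knockouts, and each library left out.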

Additional observations from a re-analysis of the deposited data

How the results depend on the processing

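The number of function-listed members called in siTfap2c minus Ctrl and siTfap2c minus siKlf5 stayed within 1.5 times under every alternative that kept all libraries. The members tested were 28, but 37 with no filter and 23 with a filter at 5 units. In siTfap2c minus Ctrl, the share of all genes called moved from 12.6% higher and 11.9% lower to 5.38% and 5.49% with no filter. It was 16.5% and 15.2% with the filter at 5 units. In siTfap2c minus siKlf5 it moved from 15.1% and 10.5% to 6.37% and 4.34%, and to 19.8% and 14.5%, in these settings. In siKlf5 minus Ctrl, leaving out any 1 library left fewer members called in each direction, and the share of all genes called fell with them. A fit without 1 library assumes that the lone library of its group varies like the other groups. In Arpc1bE_CdxE1_KO minus Ctrl, the 4 higher of 28 became 2 of 37 with no filter, 8 of 23 with a filter at 5 units, 1 of 28 after centring, 8 of 28 in the fit of all 10 libraries and 1 to 7 without 1 library. The share of all genes called higher moved with them, from 23.2% to 5.23%, 37.6%, 1.63% and 30.2% in the first 4 of these settings. Its 1 lower member became 0 with no filter and 0 to 1 without 1 library. In CdxE2_KO minus Ctrl, the 6 higher became 1 after centring (28.5% of all genes became 2.64%). The 1 lower became 0 with no filter and 2 after centring (1.44% of all genes became 0.65% and 3.6%). Leaving out any 1 library left fewer members called in each direction, and the share of all genes called fell with them. The cause was not tested. The percent difference in summed level from Ctrl, without Ctsl, was -26.9 in siTfap2c (from -15.7), -6.10 in siKlf5 (from 2.76), 0.497 in Arpc1bE_CdxE1_KO (from 13.7) and -1.13 in CdxE2_KO (from 12.8). As a share of the library it was -9.68 and -8.35 in the knockouts, which follows from their larger library sums.

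After centring, 22 of the 28 differences were negative in Arpc1bE_CdxE1_KO (7 as deposited) and 21 in CdxE2_KO (12 as deposited). The median of the 28 was then -0.17 and -0.26, beside -0.05 and -0.04 over all genes. As deposited it was 0.16 and 0.07, beside 0.27 and 0.29. The share of all genes with a negative difference was not counted. Among the factors and sphingomyelinase genes, signs turned for differences without a call. Centring gave -0.050 for Tfe3 in siTfap2c minus siKlf5, -0.28 and -0.17 for Smpd1 in Arpc1bE_CdxE1_KO and CdxE2_KO, and -0.14 for Tfeb in CdxE2_KO. Without 1 library, Smpdl3a in siKlf5 minus Ctrl ran from -0.11 to 0.20, Tfe3 in siTfap2c minus siKlf5 from -0.017 to 0.055, Smpd1 in that comparison from -0.23 to 0.14, and Smpd1 in Arpc1bE_CdxE1_KO minus Ctrl from -0.066 to 0.15. Same-numbered replicates did not deviate together (r from -0.05 to 0.04 between groups), so the numbers are not taken to pair the libraries. With a replicate block the calls were 5 higher and 13 lower in siTfap2c, 2 and 5 in siKlf5, and 5 and 9 in siTfap2c minus siKlf5. The shares of all genes called were 12% and 11.4%, 1.75% and 4.56%, and 14.4% and 10.1%. With the block the members called were 4 and 1 of 28 in Arpc1bE_CdxE1_KO and 5 and 1 of 28 in CdxE2_KO. The shares of all genes were 21.9% and 0.806%, and 26.9% and 1.4%. Depth is unknown, which leaves the precision of low values unknown.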
